A study of Saccharomyces cerevisiae with 8 samples.

Results

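The transcripts followed here belong to the synthesis of lysine, of the branched-chain amino acids isoleucine, valine and leucine, of histidine and of the aromatic amino acids in the budding yeast *Saccharomyces cerevisiae*, with *GCN4*, the gene of the transcription factor that activates most of them. The members were selected by pathway from a list of 37 gene names, and the list was drawn up with earlier results of these data known. Of these, 36 were measured, among 5449 named genes in all: *GCN4*, 8 genes of lysine synthesis, 11 of branched-chain synthesis, 7 of histidine synthesis and 9 of aromatic synthesis. *TRP1* was not analysed here. Each measured member had a single probe set.

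Total RNA had been hybridised to 8 Affymetrix expression arrays, 2 for each of 4 groups. One strain was PY1 and the other, py283 in the labels, carried the temperature-sensitive allele met30-6. Each strain was sampled after 1 h at either 25 °C or 35 °C. Cultures of all groups grew to mid-log phase in the rich medium YPDA at 25 °C, the permissive temperature, and 35 °C was the non-permissive one. *MET30* encodes the F-box subunit that brings the sulfur pathway activator Met4 to an SCF ubiquitin ligase, and the design aimed at genes that mark loss of Met30 function. No source used here gives the genotype of PY1, nor the number of cultures or clones behind the 2 arrays of a group, so p-values measure the spread between arrays, which may be technical. The comparison of 35 °C with 25 °C in met30-6 holds the effect of warming together with that of the allele, and PY1 gives the same warming in a strain not labelled with the allele.

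As background, Gcn4 binds upstream of genes in nearly every amino acid pathway. Its own synthesis is controlled mostly at translation: short upstream reading frames in the *GCN4* transcript keep translation low while amino acids are plentiful, and the kinase Gcn2 relieves this block when uncharged tRNA builds up. The level of the *GCN4* transcript is therefore not a measure of Gcn4 activity. Pathway regulators act beside it: Leu3 on branched-chain genes in response to the leucine precursor alpha-isopropylmalate, Lys14 on lysine genes in response to alpha-aminoadipate semialdehyde, and Bas1 with Pho2 on histidine and purine genes.

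Values are the deposited expression values, taken as log2. A difference of 1 stands for 2-fold if the log base is 2, which was inferred from their range and not stated. Array medians lay between 10.97 and 11.09, and the 2 arrays of a group correlated across genes at Pearson's r between 0.993 and 0.995. The arrays of PY1 at 25 °C were the least alike for the members: replicate 1 read above replicate 2 for 32 of the 36, with a median gap of 0.21 against 0.06 over all genes. In PY1 at 35 °C replicate 1 was above replicate 2 for 1 of the 36, with a median gap of −0.10. Mean levels of the members ran from 10.25 to 13.75, below the highest value of each array, which lay between 14.37 and 14.51. Whether signals flatten near that ceiling was not tested. *MET30* itself read 11.06 and 10.99 in PY1 at 25 °C, 10.98 and 10.97 in PY1 at 35 °C, 11.69 and 11.65 in met30-6 at 25 °C and 13.03 and 13.11 in met30-6 at 35 °C. A temperature-sensitive allele need not alter its transcript, so this does not test the labels. Both strains carried transcripts of the **a** mating type, with *MFA1*, *MFA2*, *STE2* and *STE6* at group means between 11.42 and 13.23, whereas the alpha genes *MF(ALPHA)1*, *MF(ALPHA)2* and *STE3* had group means between 3.77 and 6.36. *BAR1* and *SAG1* departed from that pattern, at 4.82 to 6.24 and 9.78 to 10.12.

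Most of the synthesis genes stood lowest in met30-6 at 35 °C. That group had the lowest mean for 26 of the 36 members, including 8 of the 11 branched-chain genes and 7 of the 9 aromatic genes. The share of all genes with their lowest mean in that group was not counted, so this count has no background beside it. The threshold for a call was an adjusted p of 0.05 in limma, fitted on all 5449 genes. When the strains were compared at 35 °C, 28 members were lower and 2 higher in met30-6, while 32.7% of all genes were called lower and 34.0% higher, 66.7% in all. The interaction is the change from 25 °C to 35 °C in met30-6 less the change in PY1, and asks whether the strains responded differently. By this measure 20 members responded lower in met30-6 and 1 higher, beside 24.5% and 23.7% of all genes, 48.3% together. The median interaction was −0.41 for the members and 0.003 for all genes. Without *LEU2*, *HIS3* and *LYS2*, which can be strain markers, 18 of 33 responded lower, and the median was −0.41 there too. The count of 20 fell to 13 without PY1 35 °C replicate 2 and to 13 without met30-6 35 °C replicate 2.

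**Figure D1:**
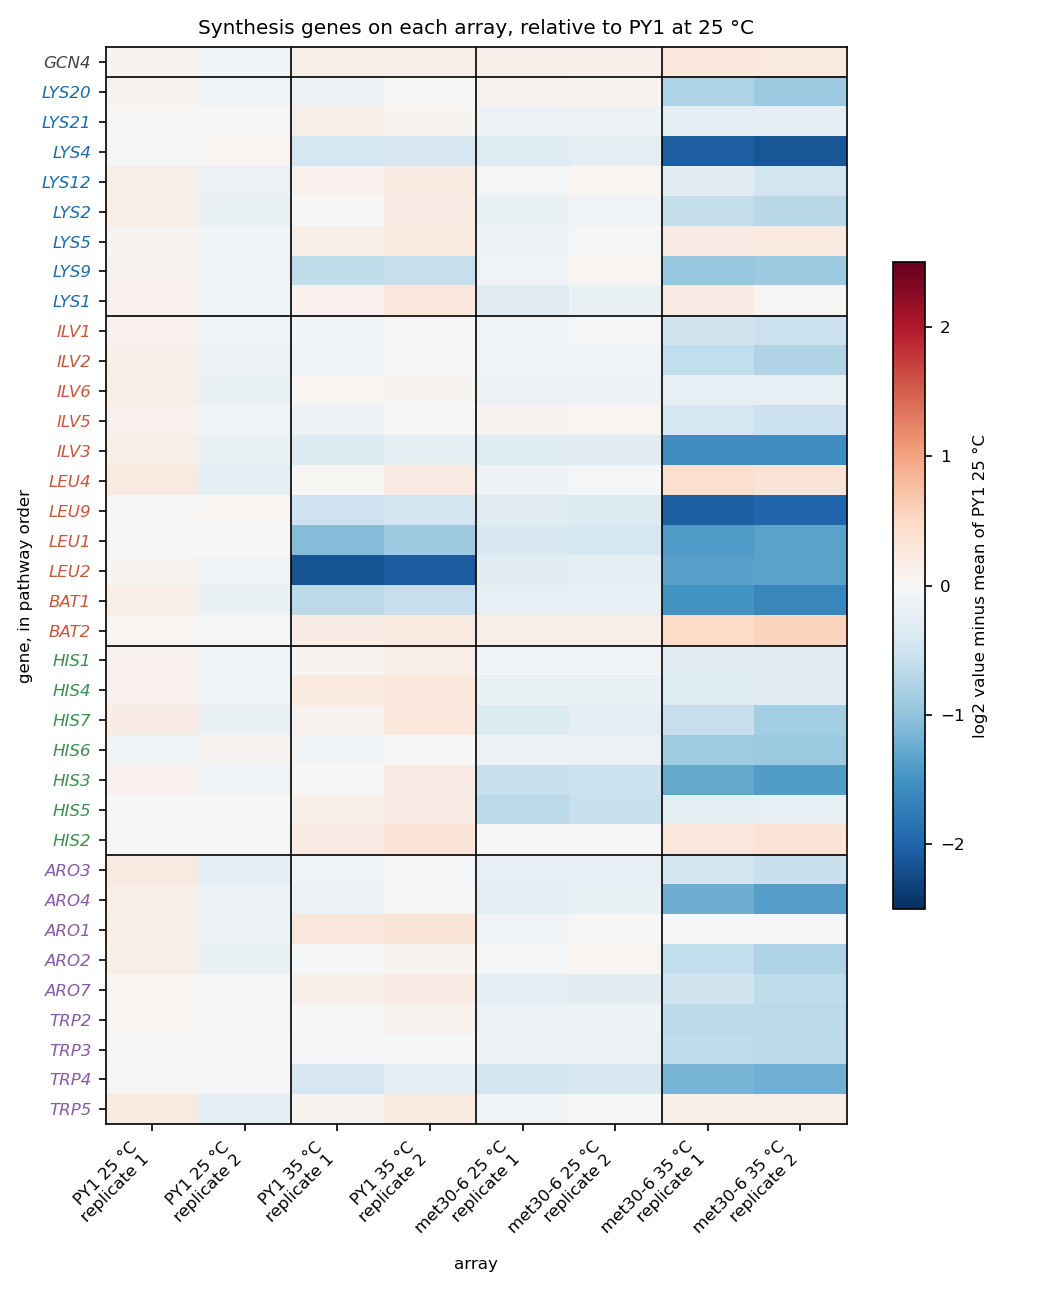
Log2 value of each of the 36 genes (rows) on each of the 8 arrays (columns), minus the gene's mean over the 2 arrays of PY1 at 25 °C. Rows follow pathway order, with *GCN4* first, then lysine, branched-chain, histidine and aromatic synthesis between the lines; the lowest values are those of *LYS4* and *LEU9* on both met30-6 35 °C arrays and *LEU2* on both PY1 35 °C arrays.

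The *GCN4* transcript read 13.68 and 13.56 in PY1 at 25 °C, 13.77 and 13.78 in PY1 at 35 °C, 13.74 and 13.74 in met30-6 at 25 °C and 13.88 and 13.87 in met30-6 at 35 °C. The 4 group means lay within 0.26 of each other, and *GCN4* was not called in any of the 5 comparisons made here. Its interaction was −0.017 ± 0.080 (SE), with a 95% interval of −0.21 to 0.17 (adjusted p = 0.879). The difference between 35 °C and 25 °C was 0.15 in PY1 and 0.14 in met30-6, and the latter passed the threshold with array medians centred (0.14, adjusted p = 0.0433) and in the fit of met30-6 arrays alone (0.14, adjusted p = 0.0498). With medians centred, the strain difference of *GCN4* at 35 °C was also called, with met30-6 higher (0.17, adjusted p = 0.0241). Without PY1 25 °C replicate 1 *GCN4* was called in both strains, at 0.21 in PY1 (adjusted p = 0.0307) and 0.14 in met30-6 (adjusted p = 0.0337), and without replicate 2 it was called in met30-6 (0.14, adjusted p = 0.0337).

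In lysine synthesis, 5 of 8 genes responded lower to 35 °C in met30-6 than in PY1, beside 24.5% of all genes, with a median of −0.43, and the largest value was at *LYS4*. Lysine is made in yeast from alpha-ketoglutarate through alpha-aminoadipate. *LYS4* (YDR234W) encodes homoaconitase, an iron-sulfur enzyme of the early route. It read 11.97 and 12.08 at 25 °C and 11.60 and 11.61 at 35 °C in PY1, and 11.70 and 11.78 at 25 °C and 9.96 and 9.88 at 35 °C in met30-6. The met30-6 values at 35 °C were far below the other 6, which stayed within 0.48 of each other. At 35 °C it fell by 0.42 in PY1 and fell by 1.82 in met30-6 on the log2 scale, the latter 3.53-fold, and the interaction was −1.40 ± 0.089 (SE; adjusted p = 7.52e-05).

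Homocitrate synthase, the first enzyme of the route, is encoded by *LYS20* (YDL182W) and *LYS21* (YDL131W). At 35 °C both were called lower in met30-6 than in PY1, at −0.76 (limma, adjusted p = 0.000223) and −0.34 (adjusted p = 0.00102). *LYS20* read 13.13 and 12.97 in PY1 at 25 °C, 12.90 and 13.03 in PY1 at 35 °C, 13.13 and 13.12 in met30-6 at 25 °C and 12.28 and 12.14 in met30-6 at 35 °C. Only its met30-6 arrays at 35 °C stood apart from the rest, with an interaction of −0.84 ± 0.12 (SE; adjusted p = 0.00146). *LYS21* read 12.73 and 12.68 at 25 °C and 12.85 and 12.78 at 35 °C in PY1, and 12.55 and 12.59 at 25 °C and 12.47 and 12.47 at 35 °C in met30-6, a range of 0.38 over all 8 arrays. Its interaction of −0.21 was not called (95% interval −0.38 to −0.033, adjusted p = 0.0537), although it was called with quantile normalisation (−0.29, adjusted p = 0.0273).

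*LYS2* (YBR115C), which encodes the large aminoadipate reductase, read 12.70 and 12.37 at 25 °C and 12.52 and 12.75 at 35 °C in PY1, and 12.36 and 12.44 at 25 °C and 11.93 and 11.83 at 35 °C in met30-6. The arrays of met30-6 at 35 °C lay below all others, and PY1 at 25 °C spanned 0.33 by itself. Its interaction was −0.62 ± 0.17 (SE; adjusted p = 0.024), and the call ended without PY1 35 °C replicate 2 (−0.51), met30-6 25 °C replicate 2 (−0.58) or met30-6 35 °C replicate 2 (−0.57). *LYS12*, of homoisocitrate dehydrogenase, read 13.18 and 12.90 in PY1 at 25 °C, 13.15 and 13.27 in PY1 at 35 °C, 13.01 and 13.09 in met30-6 at 25 °C and 12.75 and 12.57 in met30-6 at 35 °C. Again the 2 met30-6 arrays at 35 °C were the lowest of the 8. The interaction of *LYS12* was −0.56 ± 0.16 (SE; adjusted p = 0.0244), a call that ended without PY1 35 °C replicate 2 (−0.50), met30-6 25 °C replicate 2 (−0.52) or met30-6 35 °C replicate 2 (−0.47).

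At the end of the pathway, *LYS9*, which encodes the saccharopine-forming reductase, fell in both strains, by 0.60 in PY1 and 0.91 in met30-6. Its interaction of −0.31 was at the threshold (adjusted p = 0.0498) and lost its call without any array but PY1 25 °C replicate 1 (−0.37 to −0.23), with array medians centred (−0.25, adjusted p = 0.0675) and with unnamed probe sets kept (−0.31, adjusted p = 0.0504). With a replicate block that call was lost too (−0.31, adjusted p = 0.0822). *LYS1*, of saccharopine dehydrogenase, which releases lysine, and *LYS5*, of the transferase that activates Lys2, had positive values in the interaction, 0.15 and 0.11, that were not called (adjusted p = 0.452 and 0.411). *LYS5* was called with quantile normalisation (0.24, adjusted p = 0.0445). In met30-6 both rose at 35 °C, by 0.33 and 0.31. The call of *LYS1* ended without met30-6 25 °C replicate 1 (0.28) or met30-6 35 °C replicate 1 (0.24), and that of *LYS5* without met30-6 25 °C replicate 1 (0.27).

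Branched-chain synthesis held the widest spread of responses, from −1.20 at *LEU9* to 1.02 at *LEU2*. Of its 11 genes, 6 responded lower and 1 higher in met30-6, beside 24.5% and 23.7% of all genes, with a median of −0.41. In PY1 alone, 35 °C lowered 4 of them, *LEU1*, *LEU2*, *LEU9* and *BAT1*, beside 10.4% of all genes, and raised *BAT2*.

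*LEU2* (YCL018W) encodes beta-isopropylmalate dehydrogenase and was the sole member that responded higher in met30-6. It read 11.77 and 11.65 in PY1 at 25 °C, 9.56 and 9.64 in PY1 at 35 °C, 11.44 and 11.47 in met30-6 at 25 °C and 10.35 and 10.37 in met30-6 at 35 °C. Both strains were lower at 35 °C than at 25 °C, with no overlap, and the drop was deeper in PY1: 2.11 on the log2 scale, or 4.32-fold, against 1.09, or 2.13-fold, in met30-6. The interaction was 1.02 ± 0.087 (SE; adjusted p = 0.0002), and it stayed called with each of the 8 arrays left out in turn, at 0.96 to 1.08. *LEU1*, of the iron-sulfur enzyme isopropylmalate isomerase one step before, fell by 1.00 in PY1 and 0.97 in met30-6. Its interaction was 0.026, with a 95% interval of −0.22 to 0.27 (adjusted p = 0.853).

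Alpha-isopropylmalate synthase, which commits carbon to leucine, is encoded by *LEU4* (YNL104C) and *LEU9* (YOR108W). *LEU9* read 12.45 and 12.57 at 25 °C and 11.99 and 12.05 at 35 °C in PY1, and 12.22 and 12.16 at 25 °C and 10.48 and 10.53 at 35 °C in met30-6. At 35 °C it fell by 0.49 in PY1 and by 1.69 in met30-6, which is 3.22-fold, and the interaction was −1.20 ± 0.088 (SE; adjusted p = 0.000117). *LEU4* read 13.40 and 12.96 in PY1 at 25 °C, 13.22 and 13.40 in PY1 at 35 °C, 13.05 and 13.13 in met30-6 at 25 °C and 13.60 and 13.49 in met30-6 at 35 °C. Its highest 2 values were those of met30-6 at 35 °C, but the PY1 arrays at 25 °C differed by 0.44 from each other, and the interaction of 0.33 was not called (95% interval −0.15 to 0.81, adjusted p = 0.22). Without PY1 25 °C replicate 2 it was 0.55 and called (adjusted p = 0.0174), and without replicate 1 it was 0.11. Within met30-6 *LEU4* rose by 0.46 (adjusted p = 0.0254), a call that ended without met30-6 25 °C replicate 1 (0.42), met30-6 25 °C replicate 2 (0.49), met30-6 35 °C replicate 1 (0.40) or met30-6 35 °C replicate 2 (0.51), and with quantile normalisation (0.16, adjusted p = 0.15).

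Branched-chain aminotransferases carry out the final step, Bat1 in mitochondria and Bat2 in the cytosol. *BAT1* (YHR208W) read 13.51 and 13.18 in PY1 at 25 °C, 12.66 and 12.77 in PY1 at 35 °C, 13.13 and 13.15 in met30-6 at 25 °C and 11.86 and 11.72 in met30-6 at 35 °C. It fell in both strains and further in met30-6, by 0.63 and 1.35, with an interaction of −0.72 ± 0.16 (SE; adjusted p = 0.0097). *BAT2* (YJR148W) went the other way and read 13.35 and 13.24 at 25 °C and 13.48 and 13.51 at 35 °C in PY1, and 13.43 and 13.43 at 25 °C and 13.78 and 13.85 at 35 °C in met30-6. It rose by 0.20 in PY1 and 0.38 in met30-6, and its interaction of 0.18 was not called (95% interval −0.015 to 0.38, adjusted p = 0.112) except with array medians centred (0.24, adjusted p = 0.0433). The rise in PY1 lost its call without any array but PY1 25 °C replicate 1, met30-6 35 °C replicate 1 and met30-6 35 °C replicate 2 (0.15 to 0.22), with array medians centred (0.15, adjusted p = 0.0885), with quantile normalisation (0.06, adjusted p = 0.36) and with PY1 arrays alone (0.20, adjusted p = 0.104). A replicate block ended that call as well (0.20, adjusted p = 0.0677).

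*ILV3* (YJR016C), of dihydroxyacid dehydratase, an iron-sulfur enzyme that isoleucine, valine and leucine synthesis share, read 13.42 and 13.10 at 25 °C and 12.91 and 13.04 at 35 °C in PY1, and 12.95 and 12.99 at 25 °C and 11.72 and 11.70 at 35 °C in met30-6. Both met30-6 arrays at 35 °C were more than 1 below the lowest of the other 6. It fell 2.40-fold in met30-6, was −0.28 and not called in PY1 (adjusted p = 0.0775), and had an interaction of −0.98 ± 0.15 (SE; adjusted p = 0.00208). In PY1 it was called lower with array medians centred (−0.34), quantile normalisation (−0.41), the dimmest 20% of genes left out (−0.28) and a variance trend (−0.28), and without PY1 25 °C replicate 2 (−0.44, adjusted p = 0.0114). The steps before it had smaller values. *ILV2*, of the catalytic subunit of acetolactate synthase, was at −0.57 ± 0.14 in the interaction, *ILV5*, of the reductoisomerase, at −0.48 ± 0.12, and *ILV1*, of threonine deaminase, at −0.41 ± 0.12. All 3 were called, with adjusted p of 0.0154, 0.0141 and 0.0258. The call ended for *ILV2* without PY1 35 °C replicate 2 (−0.51) or met30-6 35 °C replicate 2 (−0.50), for *ILV5* without PY1 35 °C replicate 2 (−0.42) or met30-6 35 °C replicate 2 (−0.43), and for *ILV1* without any array but PY1 25 °C replicate 1, PY1 25 °C replicate 2 and PY1 35 °C replicate 1 (−0.44 to −0.36). *ILV6*, of the regulatory subunit of acetolactate synthase, was at −0.14 and not called (95% interval −0.48 to 0.20), but was called with quantile normalisation (−0.27, adjusted p = 0.014). Leaving out PY1 25 °C replicate 1 also gave a call for *ILV6*, at −0.30 (adjusted p = 0.018), and leaving out replicate 2 gave 0.027.

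**Figure D2:**
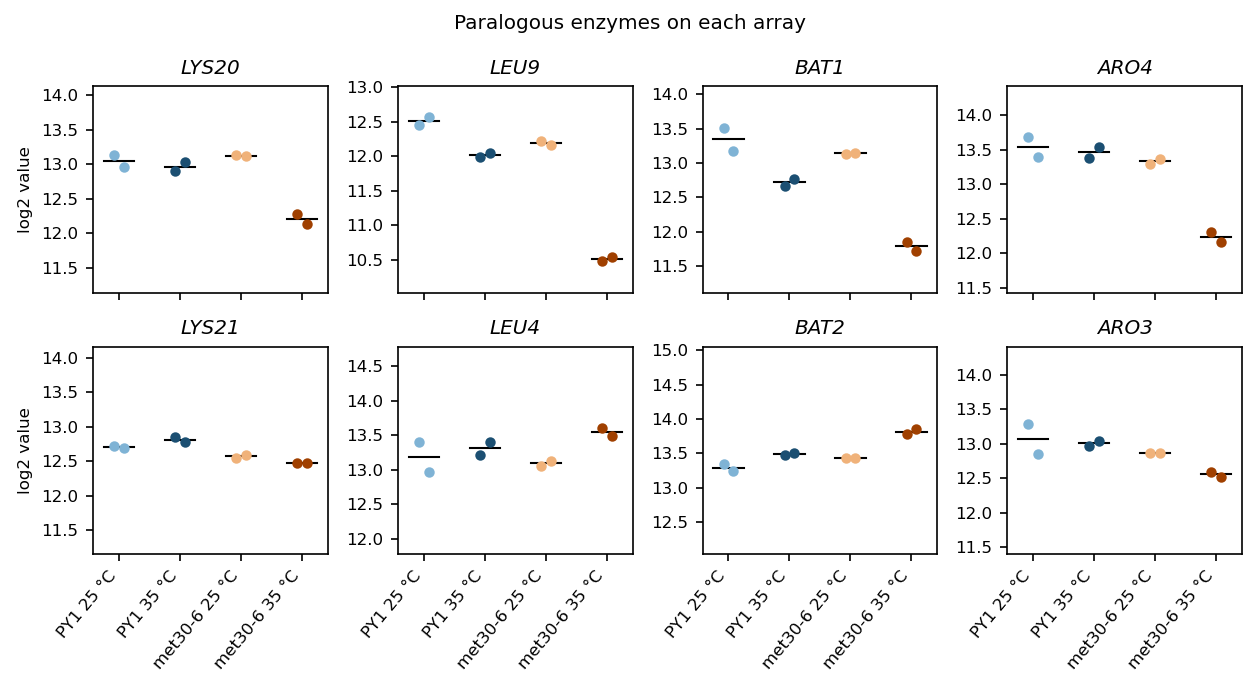
Log2 value on each array (points) and group mean (bars) for the isozyme pairs of homocitrate synthase, alpha-isopropylmalate synthase, branched-chain aminotransferase and the first aromatic enzyme. Every panel spans the same number of log2 units around its own middle, and levels are not comparable between panels; the genes in the upper row drop in met30-6 at 35 °C by 0.92 to 1.69, while those in the lower row run from −0.30 to 0.46.

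The members of an isozyme pair had unlike values. In met30-6, 35 °C minus 25 °C was −0.92 for *LYS20* and −0.10 for *LYS21*, −1.69 for *LEU9* and 0.46 for *LEU4*, −1.35 for *BAT1* and 0.38 for *BAT2*, and −1.09 for *ARO4* and −0.30 for *ARO3*. For *LEU4* with *LEU9* and *BAT1* with *BAT2* the 2 members of the pair were called in opposite directions. *LYS21* and *ARO3* were not called, although both were with quantile normalisation (−0.30, adjusted p = 0.00426, and −0.53, adjusted p = 0.00104). *ARO3* was called as well with the dimmest 20% of genes left out, a variance trend and met30-6 arrays alone, at −0.30 in each. The difference between the members of a pair was not tested.

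Of the 7 genes of histidine synthesis, 3 responded lower in met30-6 and the other 4 were not called, beside 24.5% of all genes called lower and 48.3% called in either direction, with a median interaction of −0.39. *HIS6* (YIL020C), of the isomerase in the middle of the route, read 10.91 and 11.03 at 25 °C and 10.89 and 10.97 at 35 °C in PY1, and 10.82 and 10.82 at 25 °C and 10.09 and 10.04 at 35 °C in met30-6. It was at −0.039 and not called in PY1 (adjusted p = 0.66), fell by 0.76 in met30-6 and had an interaction of −0.72 ± 0.087 (SE; adjusted p = 0.000778). *HIS3* (YOR202W), of imidazoleglycerol-phosphate dehydratase, read 13.00 and 12.78 at 25 °C and 12.91 and 13.08 at 35 °C in PY1, and 12.34 and 12.36 at 25 °C and 11.61 and 11.50 at 35 °C in met30-6. The strains were already apart at 25 °C, by 0.54 with met30-6 lower, and by 1.44 at 35 °C, and the interaction was −0.90 ± 0.13 (SE; adjusted p = 0.00178).

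*HIS4* (YCL030C) encodes an enzyme of several activities in the route and is a classic Gcn4 target. It read 13.60 and 13.38 in PY1 at 25 °C, 13.74 and 13.76 in PY1 at 35 °C, 13.33 and 13.33 in met30-6 at 25 °C and 13.19 and 13.21 in met30-6 at 35 °C. It rose by 0.26 in PY1 (adjusted p = 0.0383) and was −0.13 and not called in met30-6 (adjusted p = 0.171). Its interaction of −0.39 ± 0.11 (SE; adjusted p = 0.0238) lost its call without any array but PY1 25 °C replicate 1 and PY1 25 °C replicate 2 (−0.40 to −0.38). The rise in PY1 lost its own without any array but PY1 25 °C replicate 1 (0.15 to 0.27), with array medians centred (0.20, adjusted p = 0.0682) and with PY1 arrays alone (0.26, adjusted p = 0.103). A replicate block ended the call of that rise as well (0.26, adjusted p = 0.06).

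*HIS5* (YIL116W), of histidinol-phosphate aminotransferase, read 12.63 and 12.60 at 25 °C and 12.75 and 12.81 at 35 °C in PY1, and 11.96 and 12.05 at 25 °C and 12.38 and 12.41 at 35 °C in met30-6. At 25 °C its met30-6 arrays were 1.52-fold below those of PY1, the largest strain difference at that temperature among the members, at −0.61 ± 0.056 (SE; adjusted p = 0.000682) on the log2 scale. It rose by 0.39 in met30-6, and its positive interaction of 0.23 just missed the threshold (95% interval 0.040 to 0.42, adjusted p = 0.0504), which it passed with array medians centred (0.29, adjusted p = 0.0127), without the dimmest 20% of genes (0.23, adjusted p = 0.0434) and with a variance trend (0.23, adjusted p = 0.0367). *HIS2*, of histidinol phosphatase, the step after His5, rose in both strains by 0.27 and 0.30. Its rise in PY1 lost its call without PY1 35 °C replicate 2 (0.21) and with PY1 arrays alone (0.27, adjusted p = 0.0508). *HIS1*, of the first and feedback-inhibited enzyme, and *HIS7*, of the enzyme that closes the imidazole ring, had interactions of −0.32 and −0.59 that missed the threshold (adjusted p = 0.0635 and 0.0511) and passed it with quantile normalisation (−0.50, adjusted p = 0.00115, and −0.62, adjusted p = 0.0201). Both also passed it with the dimmest 20% of genes left out and with a variance trend, and *HIS7* with array medians centred (−0.53, adjusted p = 0.0485). Both were called when PY1 25 °C replicate 1 was left out, at −0.43 (*HIS1*, adjusted p = 0.00938) and −0.78 (*HIS7*, adjusted p = 0.0146), and *HIS7* was called without met30-6 35 °C replicate 1 (−0.72, adjusted p = 0.044). In met30-6, *HIS7* fell by 0.42, a call that ended without met30-6 25 °C replicate 1 (−0.47), met30-6 25 °C replicate 2 (−0.37) or met30-6 35 °C replicate 2 (−0.29).

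In aromatic synthesis 6 of 9 genes responded lower in met30-6 and the other 3 were not called, beside 24.5% of all genes called lower, with a median of −0.48. The entry into the pathway is a pair of isozymes, Aro3, inhibited by phenylalanine, and Aro4, inhibited by tyrosine. *ARO4* (YBR249C) read 13.69 and 13.40 in PY1 at 25 °C, 13.39 and 13.55 in PY1 at 35 °C, 13.30 and 13.37 in met30-6 at 25 °C and 12.31 and 12.17 in met30-6 at 35 °C. It was at −0.076 and not called in PY1 (adjusted p = 0.629), fell 2.13-fold in met30-6 and had an interaction of −1.02 ± 0.15 (SE; adjusted p = 0.00206). *ARO3* (YDR035W) read 13.29 and 12.86 at 25 °C and 12.97 and 13.04 at 35 °C in PY1, and 12.86 and 12.87 at 25 °C and 12.60 and 12.52 at 35 °C in met30-6. The arrays of PY1 at 25 °C alone spanned 0.43, and the interaction of −0.24 was not called (95% interval −0.67 to 0.20, adjusted p = 0.321). *ARO1*, of the large enzyme that carries the middle steps of the route to chorismate, was at −0.25 and not called (adjusted p = 0.142). With quantile normalisation both were called, at −0.33 (adjusted p = 0.0419) and −0.43 (adjusted p = 0.00131). Both were called too without PY1 25 °C replicate 1, at −0.45 (*ARO3*, adjusted p = 0.00858) and −0.38 (*ARO1*, adjusted p = 0.0153), whereas *ARO3* was at −0.023 without PY1 25 °C replicate 2. *ARO2*, of chorismate synthase, responded lower, at −0.72 ± 0.17 (SE; adjusted p = 0.0124).

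After chorismate the route divides. *ARO7* (YPR060C), of chorismate mutase, opens the way to phenylalanine and tyrosine and read 12.01 and 11.92 at 25 °C and 12.08 and 12.16 at 35 °C in PY1, and 11.73 and 11.70 at 25 °C and 11.47 and 11.32 at 35 °C in met30-6. Its interaction was −0.48 ± 0.10 (SE; adjusted p = 0.00653). *TRP2* (YER090W) and *TRP3* (YKL211C) encode the subunits of anthranilate synthase, the entry to tryptophan. *TRP2* read 12.65 and 12.54 in PY1 at 25 °C, 12.61 and 12.68 in PY1 at 35 °C, 12.44 and 12.47 in met30-6 at 25 °C and 11.93 and 11.91 in met30-6 at 35 °C. *TRP3* read 12.14 and 12.12 at 25 °C and 12.07 and 12.12 at 35 °C in PY1, and 12.002 and 11.99 at 25 °C and 11.50 and 11.48 at 35 °C in met30-6. For both, the 2 arrays of met30-6 at 35 °C lay at least 0.49 below every other array, and the interactions were −0.58 ± 0.083 (SE; adjusted p = 0.00156) and −0.48 ± 0.069 (SE; adjusted p = 0.00163). *TRP4*, of the next enzyme, fell in both strains, by 0.33 in PY1 and 0.74 in met30-6, with an interaction of −0.41 ± 0.10 (SE; adjusted p = 0.0134). That call ended without met30-6 25 °C replicate 2 (−0.38), and the fall in PY1 lost its own without PY1 35 °C replicate 1 (−0.25). *TRP5*, of tryptophan synthase, which ends the route, was at 0.037 (95% interval −0.42 to 0.50, adjusted p = 0.889).

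Each strain's own response to 35 °C was counted next. In PY1, 4 members rose and 7 fell, beside 26.2% and 10.4% of all genes (36.7% together), with a median of 0.056 against 0.075 for all genes. The 4 that rose, *BAT2*, *HIS4*, *HIS2* and *ARO1*, did so by 0.20 to 0.30. *ARO1* lost its call without any array but PY1 25 °C replicate 1 (0.17 to 0.33), with PY1 arrays alone (0.30, adjusted p = 0.0883) and with a replicate block (0.30, adjusted p = 0.0622). The count of 4 became 10 without PY1 25 °C replicate 1, 0 without PY1 35 °C replicate 2, 2 without either met30-6 35 °C array and 1 without any of the other 4 arrays. In met30-6, 6 members rose and 22 fell, beside 38.8% and 29.3% of all genes (68.1% together), with a median of −0.48 against 0.074 for all genes. The count of 6 became 3 without met30-6 25 °C replicate 1. Among the 22, the fall of *LYS12* (−0.39) lost its call without met30-6 25 °C replicate 2 (−0.35) or met30-6 35 °C replicate 2 (−0.29). All 7 members that fell in PY1 were among the 22 that fell in met30-6, and of these 5 fell further there, *LEU2* fell less and *LEU1* had no called difference. A further 15 were called lower in met30-6 and not called in PY1. For 14 of them the interaction was called too, the exception being *HIS7*.

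**Figure D3:**
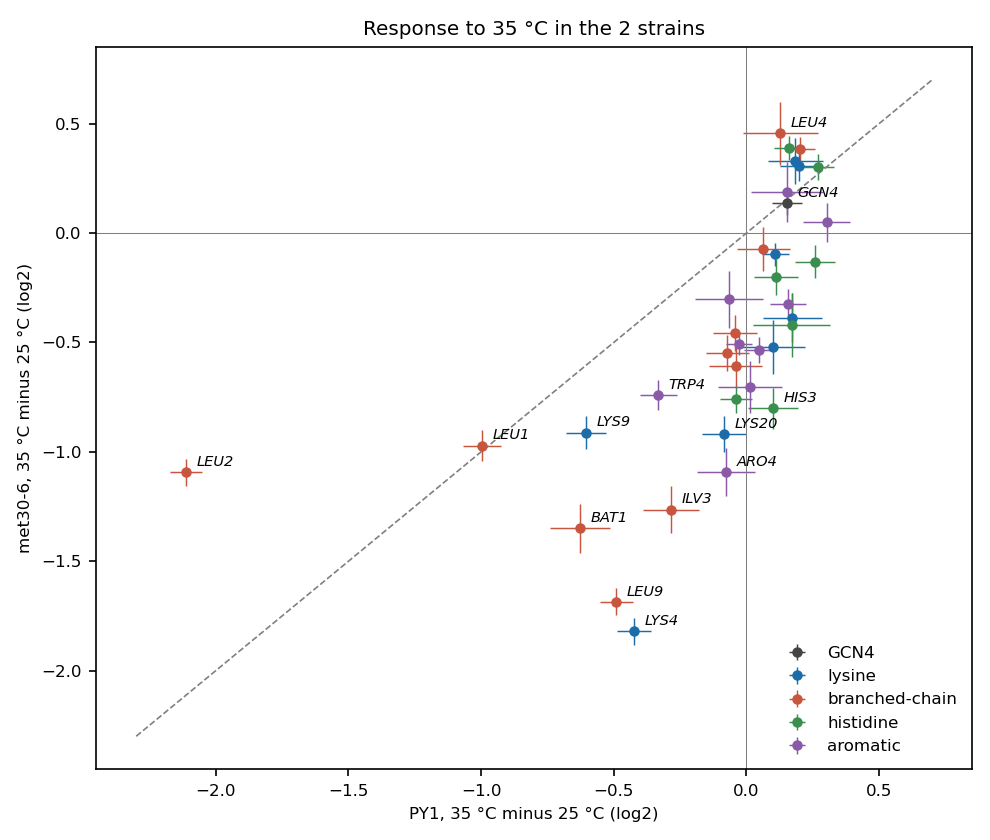
Difference between 35 °C and 25 °C (log2) of each member in PY1 (horizontal) and in met30-6 (vertical), with SE bars from the fit. Points below the dashed line of equal response moved lower in met30-6. *LYS4*, *LEU9*, *ARO4* and *ILV3* lie furthest below it, *LEU1* on it and *LEU2* above it.

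At 25 °C fewer members were called between the strains. Of the 36 members 7 were lower in met30-6 and the rest were not called, beside 5.95% of all genes lower and 6.94% higher (12.9% together). In limma 0 were called higher, against 12 lower and 1 higher (*BAT2*, 0.14) at an unadjusted p under 0.05. The median was −0.14 against 0.006 for all genes. The 7 were *HIS5* at −0.61, *HIS3* at −0.54, *TRP4* at −0.44, *LEU1* at −0.41, *LEU9* at −0.32, *LYS4* at −0.29 and *LEU2* at −0.26. Except for *HIS5*, each of these calls ended with some array left out: *HIS3* without met30-6 25 °C replicate 1 (−0.53) or met30-6 25 °C replicate 2 (−0.55), *TRP4* without met30-6 25 °C replicate 1 (−0.41), *LEU1* without PY1 25 °C replicate 2 (−0.41), met30-6 25 °C replicate 1 (−0.43) or met30-6 25 °C replicate 2 (−0.39), *LEU9* without PY1 25 °C replicate 2 (−0.26), met30-6 25 °C replicate 1 (−0.35) or met30-6 25 °C replicate 2 (−0.29), *LYS4* without any array but PY1 25 °C replicate 1, met30-6 35 °C replicate 1 and met30-6 35 °C replicate 2 (−0.33 to −0.23), and *LEU2* without any array but PY1 25 °C replicate 2 (−0.28 to −0.20). The count of 7 fell without either met30-6 25 °C array. It fell to 4 with the 25 °C arrays alone, where *LYS4*, *LEU9* and *LEU2* were the calls lost. With quantile normalisation it rose to 15, but calls of lower genes rose over all 5449 genes too, from 324 to 534. That rise was therefore not confined to the members.

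At 35 °C the difference reached at least 2-fold for 5 called members, all lower in met30-6, while 6.70% of all genes were called and at least 2-fold lower and 6.07% higher. They were *LYS4* (3.21-fold), *LEU9* (2.86-fold), *HIS3* (2.72-fold), *ILV3* (2.40-fold) and *ARO4* (2.34-fold). The 2 that were higher were *LEU2* at 0.76 ± 0.061 (SE) and *BAT2* at 0.32 ± 0.058. *BAT2* lost that call with quantile normalisation (0.12, adjusted p = 0.0805). Members with no call at 35 °C were *GCN4*, *LYS5*, *LYS1*, *LEU4*, *HIS2* and *TRP5*. Among the 28 lower genes, the calls of *ARO1* (−0.30), *ARO3* (−0.45) and *ILV6* (−0.28) were the ones lost with an array left out. This happened for *ARO1* without PY1 35 °C replicate 1 (−0.33), PY1 35 °C replicate 2 (−0.28), met30-6 35 °C replicate 1 (−0.32) or met30-6 35 °C replicate 2 (−0.29), for *ARO3* without PY1 35 °C replicate 1 (−0.48), PY1 35 °C replicate 2 (−0.42), met30-6 35 °C replicate 1 (−0.49) or met30-6 35 °C replicate 2 (−0.41) and for *ILV6* without any array but PY1 25 °C replicate 1 and PY1 25 °C replicate 2 (−0.29 to −0.26). *ILV6* also lost its call with array medians centred (−0.21, adjusted p = 0.0901) and with a replicate block (−0.28, adjusted p = 0.0556).

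**Figure D4:**
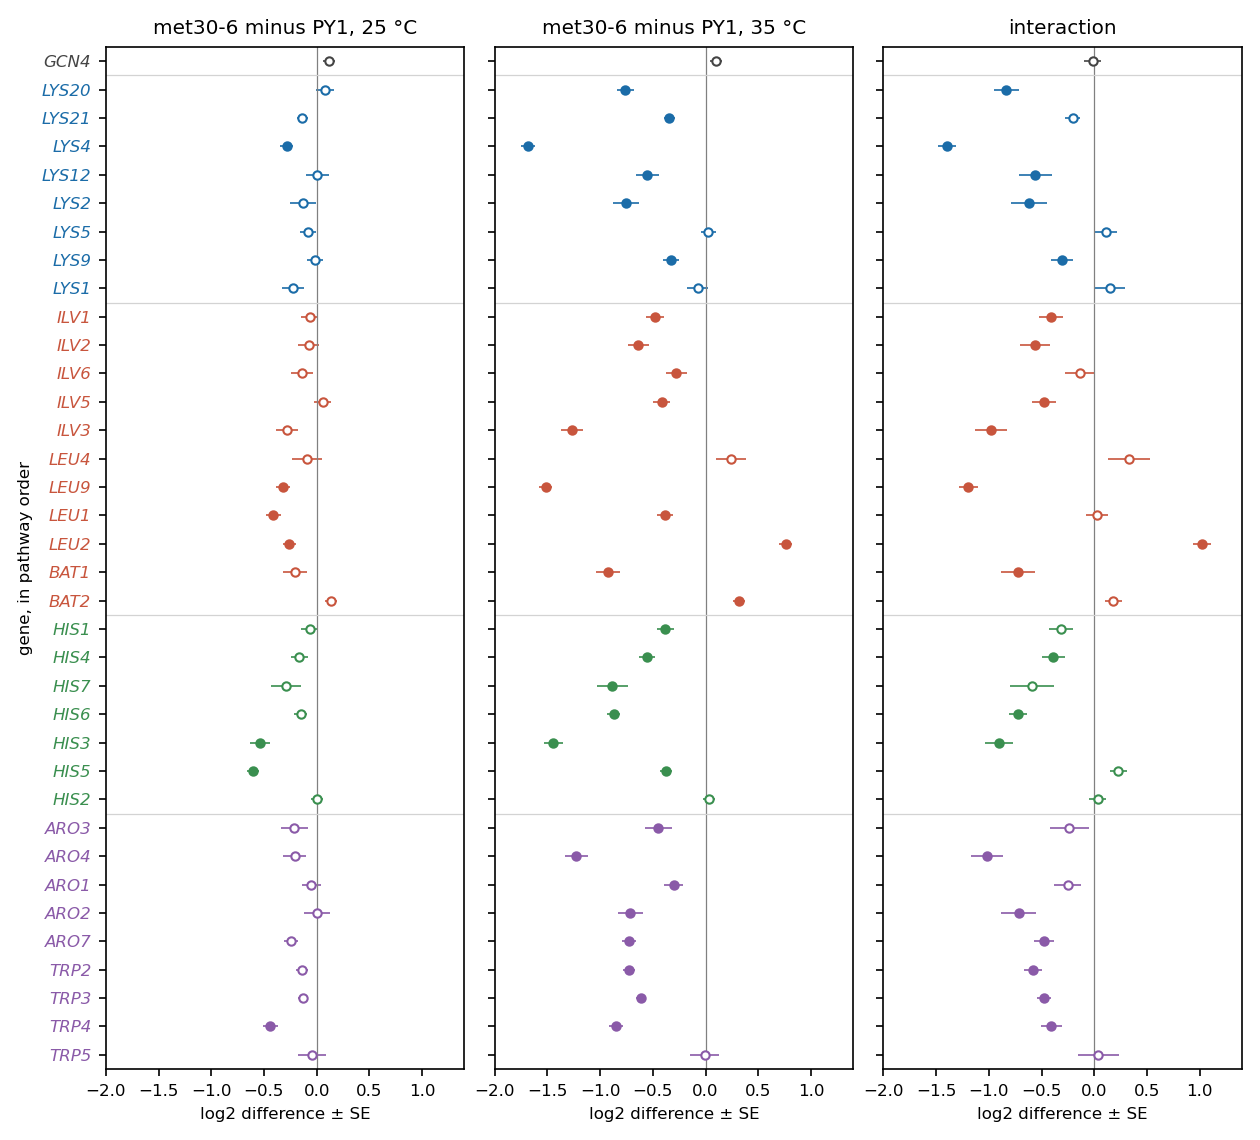
Log2 difference ± SE for each member between met30-6 and PY1 at 25 °C (left) and at 35 °C (middle), and the interaction (right). Filled points are called at an adjusted p under 0.05; at 25 °C 7 are filled, at 35 °C 30 and in the interaction 21.

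*LEU2*, *HIS3*, *LYS2* and *TRP1* are common auxotrophic markers of laboratory strains, and no source used here gives the alleles of these strains. The 3 measured ones differed between the strains at 25 °C by −0.26 (*LEU2*), −0.54 (*HIS3*) and −0.13 (*LYS2*, not called, adjusted p = 0.545), each on the log2 scale and with met30-6 lower. Of other common markers, *URA3* was at −0.52 (adjusted p = 0.0185), *ADE2* at −0.32 (adjusted p = 0.0696) and *CAN1* at −0.030 (adjusted p = 0.871). *MET17*, a target of Met4, was higher in met30-6 by 0.51. The part of marker alleles in the values of *LEU2*, *HIS3* and *LYS2* was not tested.

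Of 30 measured genes, 12 of adjoining steps, 11 of regulators and 7 of amino acid permeases, 8 responded higher and 9 lower in met30-6, with a median interaction of −0.038. These counts are near the shares over all genes, 23.7% higher and 24.5% lower. *ARO9* and *ARO10*, which encode an aromatic aminotransferase and the decarboxylase of aromatic amino acid breakdown, fell in PY1 by 0.92 and 0.78 and rose in met30-6 by 0.78 and 1.30. Their interactions, 1.70 ± 0.088 (SE; adjusted p = 4.7e-05) and 2.08 ± 0.083 (SE; adjusted p = 2.79e-05), were opposite in sign to those of the called aromatic synthesis genes. Their activator gene *ARO80* was at 0.42 (adjusted p = 0.00906).

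*CHA1*, of the deaminase that breaks down serine and threonine, stood 7.39-fold lower in the met30-6 strain at 25 °C and was higher at 35 °C than at 25 °C in both strains, by 2.13 and 3.57, with an interaction of 1.44 ± 0.10 (SE; adjusted p = 9.3e-05). *OAC1*, of the mitochondrial carrier that exports alpha-isopropylmalate, fell by 0.84 in PY1 and 1.53 in met30-6 and had an interaction of −0.69 ± 0.14 (SE; adjusted p = 0.0077). *HOM3*, of aspartate kinase, which feeds threonine and methionine synthesis, was at 0.67 ± 0.13 (SE; adjusted p = 0.00592).

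Among the regulators, *PCL5*, the gene of a Gcn4-induced cyclin that promotes Gcn4 breakdown, rose by 0.29 in PY1 and 0.89 in met30-6, with an interaction of 0.60 ± 0.12 (SE; adjusted p = 0.00553). *BAS1* was at −0.78 ± 0.11 (SE; adjusted p = 0.00151) and *LEU3* at −0.46 ± 0.085 (SE; adjusted p = 0.00492). *LYS14* was lower too, at −0.31 (adjusted p = 0.0155), whereas *PHO2* was called higher, at 0.29 (adjusted p = 0.024). *GCN3*, of a regulatory subunit of the initiation factor eIF2B, was at −0.66 ± 0.11 (SE; adjusted p = 0.00301), and *YIH1*, of an inhibitor of Gcn2 activation, at −0.69 ± 0.11 (SE; adjusted p = 0.00258). The histidine permease gene *HIP1* was at −0.57 ± 0.073 (SE; adjusted p = 0.00101). These regulators are known to act largely through their proteins, and no protein was measured.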

How the data were processed

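RNA of 4 groups with 2 arrays each had been labelled with biotin and hybridised to Affymetrix arrays, per the labels' protocols. The authors deposited 1 processed log2 value per probe set and array, already summarised over probes. The software, background correction and normalisation they used are not stated in any source used here. The base was inferred from the range of the values, and an error in it would scale every difference. Probe sets were named from the platform annotation: 5498 of 5716 had 1 gene, 12 symbols were updated, and the brightest probe set stood for each of 47 genes with several, which left 5449 genes. With limma 3.58.1 in R 4.3.3, group means were fitted on all 8 arrays (4 residual and 2.70 prior degrees of freedom). The 5 contrasts were 35 °C against 25 °C in each strain, the strains against each other at each temperature, and the interaction. P-values were adjusted by the Benjamini-Hochberg method over all 5449 genes. SD is over 2 arrays, SE and 95% intervals come from the fit, and the number of arrays limits the precision. The procedure was tested on simulated data.

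All members are named. Values on every array are given for *GCN4*, possible marker genes, isozyme pairs and up to 4 genes per pathway with the lowest adjusted p in the interaction. At most 12 genes outside the list, called in the interaction, are named with values, and *LYS14* and *PHO2* were added as pathway regulators. The members and lists were chosen with earlier results of these data known. Alternatives were centring, quantile normalisation, other filters and probe set rules, a variance trend, a replicate block, the compared groups alone and leaving out each array. *TRP1* was not analysed here, and no promoter sequence was used here. Replicate numbers were taken from the labels. They were not taken as pairs.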

Additional observations from a re-analysis of the deposited data

Results flagged for a closer look

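The difference between the strains in their response to 35 °C passed the test of the interaction for 21 of the 36 members, beside 48.3% of all genes, and each is listed for that reason alone. Each value is the change from 25 °C to 35 °C in met30-6 less the change in PY1, on the log2 scale, with limma's adjusted p under 0.05.

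In lysine synthesis the values were −1.40 for *LYS4*, −0.84 for *LYS20*, −0.62 for *LYS2*, −0.56 for *LYS12* and −0.31 for *LYS9*. Branched-chain synthesis gave −1.20 for *LEU9*, −0.98 for *ILV3*, −0.72 for *BAT1*, −0.57 for *ILV2*, −0.48 for *ILV5* and −0.41 for *ILV1*. *LEU2* was at 1.02, the one value above 0 among the 21. Histidine synthesis gave −0.90 for *HIS3*, −0.72 for *HIS6* and −0.39 for *HIS4*. In aromatic synthesis the values were −1.02 for *ARO4*, −0.72 for *ARO2*, −0.58 for *TRP2*, −0.48 for *ARO7*, −0.48 for *TRP3* and −0.41 for *TRP4*. Groups of 2 arrays are too small for a test of single outlying arrays.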

How the results depend on the processing

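Of 2844 member values recomputed under the alternatives, 2591 kept their direction and their side of the threshold, 119 lost a call, 88 gained one, 45 uncalled values changed sign by more than the replicate spread, and 1 reversed. That one was *ARO1* in met30-6 at 35 °C against 25 °C, which went from 0.049 and not called to −0.26 with quantile normalisation, and the cause was not tested. Counts that moved by over 1.5 times were as follows, and their causes were not tested. Members rising in PY1 (4) became 2 with array medians centred, 1 with a replicate block, 0 with PY1 arrays alone and 0 to 10 with an array left out. Members falling in PY1 (7) became 13 with quantile normalisation. That setting called 1150 of all 5449 genes lower in PY1, against 569 without it, so the rise was not confined to the members. Members rising in met30-6 (6) became 3 to 8 with an array left out. Members lower in met30-6 at 25 °C (7) became 15 with quantile normalisation, 4 with the 25 °C arrays alone and 1 to 8 with an array left out. Members with a higher interaction (1) became 3 with medians centred, 2 with quantile normalisation, 2 without the dimmest 20% of genes, 2 with a variance trend and 1 to 2 with an array left out. Those with a lower interaction (20) stayed between 19 and 26 under the other settings and became 13 to 25 with an array left out. The counts at 35 °C moved by less, to 2 to 3 higher and 25 to 29 lower. The replicate block gave 19 lower interactions, and 1196 over all genes against 1337 without it. Counts with an array left out stand here without a share of all genes. They do not show whether the members moved more than genes at large. Deviations of same-numbered arrays from their group means correlated at −0.18 to 0.11. These correlations cannot show whether same-numbered arrays shared a batch, which was not tested. The planned search for promoter motifs was not run. Only 2 arrays per group, and signal without a background value, limit what could be detected.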
